A study of Rattus norvegicus with 36 samples.

Results

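The step from 1 to 5 µM of HPTE was compared in rat ovarian granulosa cells cultured with cAMP, as 3 arrays titled HPTE_5_cAMP against 3 arrays titled HPTE_1_cAMP, matched by the number 1, 2 or 3 in their titles. These are 6 of the 36 arrays of the series, which held 12 groups of 3. HPTE is a metabolite of the pesticide methoxychlor. Both groups came from granulosa cells of immature female Sprague Dawley rats of 21 to 27 days, collected by puncturing follicles with needles, without enzymes. After 24 h in medium with 5% serum the cells were kept serum-free, with androstenedione in every group as the substrate for estradiol, and received cAMP at 1 mM together with HPTE at 1 or 5 µM for 48 h. Androstenedione is given as 0.1 µM in the design text, and the sample descriptions give another unit. The groups set beside them received the same HPTE doses with FSH at 3 ng/ml or with neither stimulus (basal), or cAMP with HPTE at 0 or 10 µM. Which form of cAMP was added is not stated in the labels. Nor is it stated if a group's 3 samples were separate animals or only separate wells. The p-values reflect the spread within groups, pooled over all 12 groups after the array number is taken out. That spread may therefore be technical in part. The rule leaves the unexposed cAMP cells out of the comparison because 1 of those arrays is in doubt.

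In granulosa cells, FSH acts through a receptor that raises cAMP inside the cell, and cAMP switches on protein kinase A, steroid synthesis and the genes of the maturing follicle. Cyclic AMP given from outside does not need that receptor. HPTE is known as a ligand of estrogen and androgen receptors. The transcription factor Nrf2 raises genes that detoxify reactive compounds, and genes of DNA replication and mitosis are switched on together in dividing cells.

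The step from 1 to 5 µM changed few transcripts past the test. Of 31042 probe sets, 10 passed an adjusted p of 0.05 in limma (0.0322%), 7 of them higher (0.0226%) and 3 lower (0.00966%) at 5 µM. The genes that rose were Ampd3, Cldn11, Nqo1, Ctxn1, Tmem176a and Zcchc24, and Vipr2 fell. At an unadjusted p under 0.05 there were 3639 probe sets (11.7%), 1304 higher (4.2%) and 2335 lower (7.52%). The median difference over all probe sets was -0.04 on the log2 scale, with 57.4% of them lower at 5 µM, and 48 differed by 2-fold or more. The 3 arrays of each dose did not overlap for 6.04% of probe sets that were higher and 11.8% that were lower. The count of calls depended on single arrays. It was 1, 2 and 3 without number 1, 2 or 3 at 5 µM and 4, 3 and 2 without number 1, 2 or 3 at 1 µM, 3, 0 and 1 without number 1, 2 or 3 in every group, and 0 in a fit that ignored the numbers (2113 at an unadjusted p under 0.05).

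The arrays are described in ranges. Median intensities ranged from 65.8 to 73.7, and the 6 arrays correlated with each other at 0.96 to 0.994 over all probe sets. The Gapdh control ratio (3' over 5' probe set, log2), a sign of RNA integrity, was 1.91, 1.76 and 0.87 in numbers 1, 2 and 3 at 1 µM and 2.00, 2.01 and 0.83 at 5 µM. Number 3 was lowest in both groups, and both groups held 1 array of each number. The ratio was higher at 5 µM by 0.09 and 0.24 in numbers 1 and 2 and lower by 0.04 in number 3, and the actin ratio differed by 0.31, 0.42 and -0.15. The part of RNA quality in the results was not tested. In the unexposed cells, array number 2 labelled cAMP had Cyp19a1 at 11.01, against 7.62 and 6.46 in the other two, and number 2 labelled FSH had it at 7.48, against 11.49 and 11.46. These 2 arrays are called doubted here. They enter the fit only through the spread shared by all groups. Without them 17 probe sets passed, among them all 10.

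Of the defining granulosa markers, Foxl2, Inha and Inhbb were among the 11 of 12 measured, and 0 of the 11 passed the test in limma (0 also at an unadjusted p under 0.05). Of the 11, 9 were lower at 5 µM, where 57.4% of all probe sets were, and 5 were lower in all 3 pairs, where 25% were. The median difference was -0.17, with -0.53, -0.17 and -0.04 in pairs 1, 2 and 3. The summed intensity of the 11 was 27986, 26370 and 29308 at 1 µM and 22614, 23145 and 28161 at 5 µM. The deposited values hold no detection calls, so no marker of another cell type can be called absent. Of 12 macrophage and leukocyte markers 8 were higher at 5 µM and 0 passed in limma. In all 3 pairs 6 were higher and 3 lower, where 15% and 25% of all probe sets were. Cd3e and Cd14 were higher at an unadjusted p under 0.05 (2 of 12), where 4.2% of all probe sets were. In numbers 1, 2 and 3 the summed intensity of the 12 went from 633 to 854, 582 to 717 and 514 to 580, higher in each pair. As ranges, these sums were 514 to 633 at 1 µM and 580 to 854 at 5 µM. The sums were 1033 to 2138 and 1024 to 1640 for 9 theca and stroma markers, 611 to 830 and 638 to 889 for 9 endothelial, 771 to 1158 and 866 to 1629 for 6 oocyte and 1229 to 1849 and 1319 to 2156 for 8 surface epithelium markers, and 0 of these passed in limma (1, 1, 0 and 1 at an unadjusted p under 0.05). Those at that p were lower, where 7.52% of all probe sets were. In such bulk samples, fewer cells of a type and less RNA per cell cannot be told apart.

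Ampd3, the AMP deaminase that turns AMP into IMP, had the largest difference of the 7 genes. Its log2 intensity was 7.54, 6.95 and 6.17 in numbers 1, 2 and 3 at 1 µM and 9.37, 8.92 and 8.21 at 5 µM. All 3 arrays at 5 µM lay above all 3 at 1 µM. The fit gave a 3.85-fold rise (log2 1.95 ± 0.26 SE, n = 3 arrays each, limma adjusted p = 0.00132). The call held without each of the 6 arrays in turn, with adjusted p of 0.00157 to 0.0453 in limma, but not without number 2 or number 3 in every group (0.0897 and 0.235) or in the fit without numbers (0.601). Over the other doses with cAMP its level was 6.31, 5.65 and 5.32 at 0 µM and 8.82, 9.31 and 8.20 at 10 µM. The levels at 10 and 5 µM overlapped, with numbers 1 and 2 at 10 µM within the range at 5 µM and number 3 just below it, and the difference was -0.05 (limma adjusted p = 0.952 for 10 against 5 µM, which shares the 5 µM arrays).

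Cldn11, a claudin of tight junctions known from Sertoli cells and myelin, was at 8.89, 8.14 and 7.25 at 1 µM and at 10.79, 9.52 and 9.0 at 5 µM. The groups did not overlap. The rise was 3.20-fold (1.68 ± 0.25, n = 3 each, limma adjusted p = 0.00396), and was not past the threshold without number 1 at 5 µM (0.112), without number 3 at 1 µM (0.0516), without number 1, 2 or 3 in every group (0.108, 0.0897 and 0.235), over the 12 cAMP arrays alone (0.127) or in the fit without numbers (0.709). Its course over dose was not in 1 direction: the unexposed arrays were at 9.78, 9.99 and 8.65, numbers 1 and 2 within the range at 5 µM and number 3 below it, and the arrays at 10 µM at 12.39, 12.04 and 11.66. All 3 arrays at 10 µM lay above every other with cAMP. The difference between 10 and 5 µM was 2.26 (limma adjusted p = 2.53e-06). A second probe set of Cldn11, with a mean log2 intensity of 4.95 over all arrays, differed by -0.07 (limma adjusted p = 0.861), so the 2 probe sets of this gene did not give the same result.

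Nqo1, the quinone reductase that is a standard target of Nrf2 and also of the aryl hydrocarbon receptor, was at 9.22, 9.30 and 8.25 at 1 µM. At 5 µM it was at 10.29, 9.96 and 9.40, above every array at 1 µM. It rose 1.95-fold (0.96 ± 0.17, n = 3 each, limma adjusted p = 0.0266). At 0 and 10 µM it was at 8.99, 9.07 and 8.22 and at 11.34, 10.82 and 11.01, so the 10 µM arrays lay above all others with cAMP. The call of Nqo1 held without number 2 at 1 µM (0.0136) and was lost without each of the other 5 arrays (0.0775 to 0.281). Without number 1, 2 or 3 in every group 0 of the calls of Nqo1, Tmem176a, Zcchc24 and Ctxn1 held in limma (adjusted p of 0.0897 to 0.833).

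Tmem176a, a membrane protein, was at 9.78, 9.77 and 9.55 at 1 µM and at 10.68, 10.50 and 10.19 at 5 µM. It rose 1.69-fold (0.76 ± 0.14, n = 3 each, limma adjusted p = 0.0266). Zcchc24, a zinc finger protein, was at 9.08, 9.01 and 9.02 and then at 9.94, 9.71 and 9.60. In both genes all arrays at 5 µM lay above all at 1 µM. Zcchc24 rose 1.64-fold (0.71 ± 0.13, n = 3 each, limma adjusted p = 0.0266). Its 2 other probe sets, with mean log2 intensities of 4.88 and 4.97, differed by -0.10 and 0.33 (limma adjusted p = 0.82 and 0.43). Ctxn1, or cortexin, a small membrane protein best known from neurons, was at 6.81, 6.30 and 6.20 at 1 µM and at 7.58, 7.33 and 7.08 at 5 µM, a 1.85-fold rise (0.89 ± 0.17, n = 3 each, limma adjusted p = 0.0387). Leaving out single arrays ended the calls of Tmem176a and Zcchc24 in 6 of 6 cases, with adjusted p of 0.0642 to 0.291 and 0.0541 to 0.291 in limma, and that of Ctxn1 in 5 of 6 (0.0479 to 0.726 over all 6). All 3 genes were higher again on average at 10 µM, by 0.65, 0.72 and 0.42 for Tmem176a, Zcchc24 and Ctxn1 (limma adjusted p = 0.00512, 8.02e-04 and 0.236).

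Vipr2, a receptor for vasoactive intestinal peptide and PACAP that itself raises cAMP, was the 1 gene that fell. It was at 7.44, 7.22 and 6.49 at 1 µM and at 6.32, 6.17 and 6.19 at 5 µM. The fall was 1.77-fold (-0.82 ± 0.15, n = 3 each, limma adjusted p = 0.0316). At 0 µM it was at 6.05, 5.88 and 6.26 and at 10 µM at 6.44, 5.91 and 6.0, so the 3 arrays at 1 µM were the highest of the 12 with cAMP and the other doses overlapped. The call was kept without number 3 at 1 µM (0.00357) and lost without each of the other 5 arrays (0.0715 to 0.678). In the fit without numbers none of the calls held, with an adjusted p of 0.157 for Zcchc24 and 0.601 to 0.709 for the other genes.

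**Figure D1:**
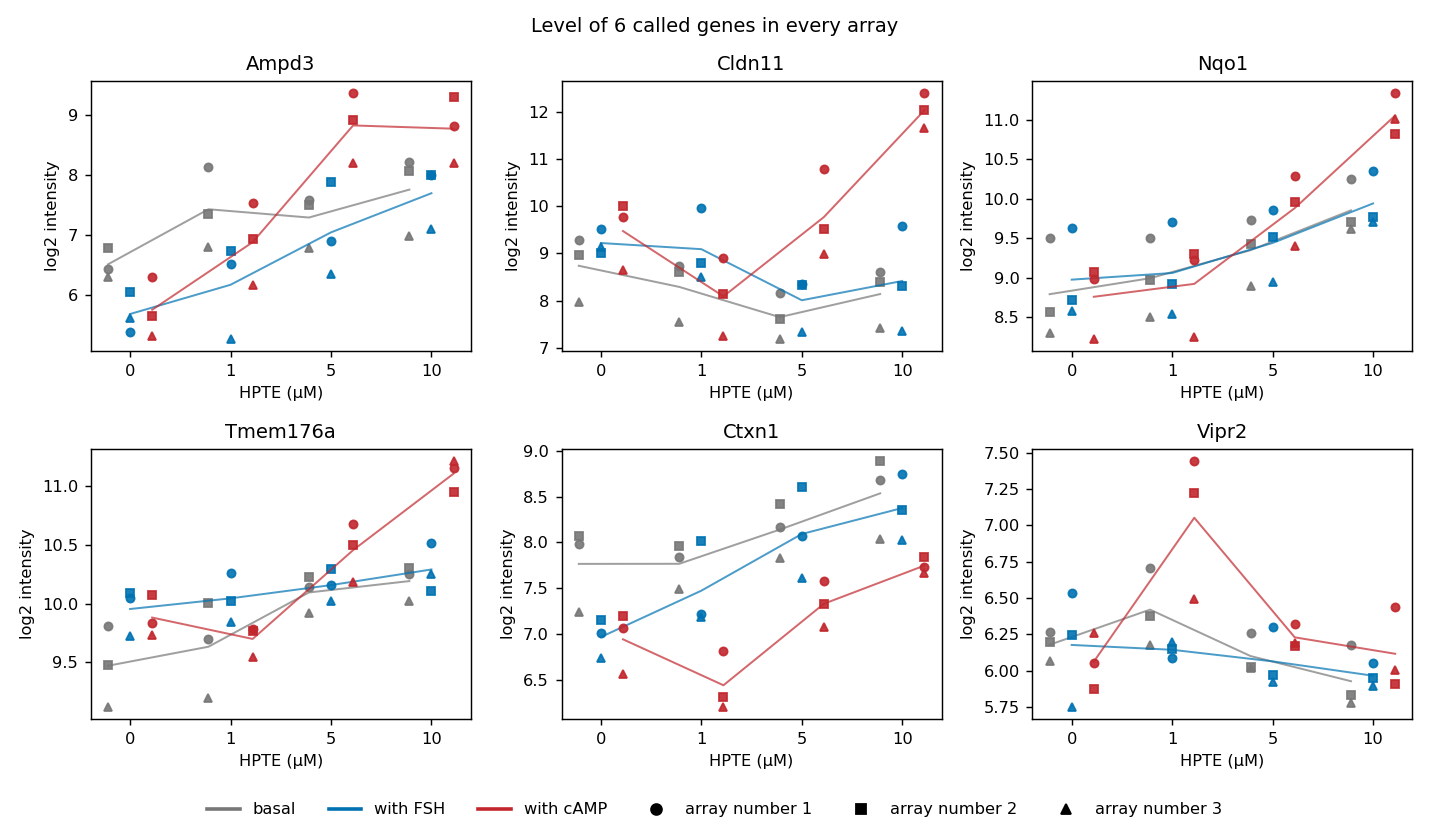
Log2 intensity on the vertical axis against HPTE dose (0, 1, 5 and 10 µM) for 6 of the 7 genes that passed with cAMP. Each point is an array, its shape is the array number and its colour the stimulus, and lines join the means of 3 arrays; the doubted unexposed arrays are included. With cAMP, Ampd3 is level between 5 and 10 µM, Cldn11 is lowest at 1 µM and Vipr2 is highest at 1 µM.

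The other 3 probe sets that passed carry no gene result here. A probe set with no symbol was at 7.69, 7.13 and 7.25 at 1 µM and at 8.49, 8.31 and 8.39 at 5 µM (1.04 ± 0.18, limma adjusted p = 0.0266, n = 3 each). Another without a symbol went from 6.38, 6.24 and 5.99 to 5.60, 5.56 and 5.55 (-0.63 ± 0.11, limma adjusted p = 0.0266, n = 3 each). Neither of these overlapped between doses. For Ggct, an enzyme of glutathione breakdown, a probe set with a mean log2 of 5.14 was lower by 0.51 (limma adjusted p = 0.0266), while the brighter probe set with a mean of 8.06 differed by 0.14 (adjusted p = 0.77).

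A further 9 genes, not past the threshold, filled each direction to 8 genes by smallest p within that direction. Fewer falling than rising genes had passed, so the larger number of falls among the 9 follows from this rule. Itgb3, the integrin beta 3 chain, was at 6.45, 6.39 and 6.39 at 1 µM and at 7.53, 6.90 and 7.38 at 5 µM (0.86 ± 0.17, limma adjusted p = 0.0803, n = 3 each). Diaph3, a formin that nucleates actin filaments, was at 8.89, 8.91 and 8.60 and then at 7.82, 8.01 and 8.38 (-0.73 ± 0.15, limma adjusted p = 0.0951, n = 3 each). In neither gene did the doses overlap. Nhlrc3 differed by 0.55, the receptor kinase Grk3 by -0.67, the homeobox gene Irx2 by -0.58, the auxiliary AMPA receptor protein Cacng8 by -0.63 and Plekhd1 by -1.08, without overlap (limma adjusted p of 0.0599 to 0.192). The spindle protein Nusap1 (-0.73) and the centrosome protein Cep57 (-0.52) had overlapping doses.

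The proliferation list held 30 genes of replication and mitosis, 28 of them measured, and 0 passed in limma. At an unadjusted p under 0.05, 21 of the 28 were lower at 5 µM and 0 higher, where 7.52% of all probe sets were lower. The list's median difference was -0.48, against -0.03 over all 14217 genes. It was -0.77, -0.35 and -0.22 in pairs 1, 2 and 3, so pair 1 differed most, and 24 of the 28 genes were lower in all 3 pairs, as were 25% of all probe sets. Without number 1 in every group the median was -0.29 and 9 genes had an unadjusted p under 0.05, and without the number in the fit 10 had. The list had been seen to differ with dose in earlier results of these arrays.

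Promoter letters are shown for 2 of these genes because most of the list lay lower together and both hold motifs known from cell cycle genes. They were picked among members that hold TTTGAA, of which Top2a had the smallest p. Prc1, which also holds both motifs, had a smaller p than Mki67 and is not printed. Each is the run of 250 bases before the gene's start in RefSeq's GRCr8 table, 5' to 3' on the gene's strand. Top2a lies on the minus strand at chr10:84473094-84473343 and Mki67 on the minus strand at chr1:199952594-199952843. Capitals mark TTTGAA, the core of the cell cycle homology region, and CCAAT, the box bound by NF-Y, on either strand.
Top2a: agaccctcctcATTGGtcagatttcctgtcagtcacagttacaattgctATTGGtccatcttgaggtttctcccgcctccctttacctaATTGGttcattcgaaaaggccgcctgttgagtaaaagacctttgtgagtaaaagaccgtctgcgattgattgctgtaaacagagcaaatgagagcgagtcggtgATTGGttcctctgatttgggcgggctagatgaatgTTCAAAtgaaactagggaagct
Mki67: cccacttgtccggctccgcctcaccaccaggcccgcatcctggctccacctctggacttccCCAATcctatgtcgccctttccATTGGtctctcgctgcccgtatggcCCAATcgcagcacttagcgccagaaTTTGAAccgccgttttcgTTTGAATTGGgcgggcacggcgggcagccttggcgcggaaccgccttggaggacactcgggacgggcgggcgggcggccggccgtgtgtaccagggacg
In Top2a the TTTGAA match begins 22 bases before the start, and 4 CCAAT matches lie further out. Mki67 holds 2 TTTGAA and 4 CCAAT matches, and 1 of each overlap. Among the 25 proliferation genes with a promoter in the table, 9 held TTTGAA (36%) and 19 held CCAAT (76%), while 16.2% and 34% of all 33469 promoters did. A match describes the letters and does not show a site in use.

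Among the chromosome and spindle genes, Top2a, the topoisomerase of dividing cells, was at 12.06, 12.27 and 12.48 at 1 µM and at 11.36, 11.35 and 12.15 at 5 µM. The doses overlapped, since number 3 at 5 µM lay above number 1 at 1 µM. The difference was -0.65 ± 0.19 (limma adjusted p = 0.284, n = 3 each). Mki67, which encodes the proliferation marker Ki-67, was at 10.00, 9.92 and 9.36 and then at 8.76, 9.37 and 8.76, overlapping by 1 array (-0.80 ± 0.26, limma adjusted p = 0.316, n = 3 each). Aurkb, the Aurora B kinase, was at 8.59, 8.35 and 8.33 and then at 7.49, 7.58 and 7.74. All arrays of Aurkb at 5 µM lay below those at 1 µM (-0.82 ± 0.22, limma adjusted p = 0.243, n = 3 each). Kif11, a spindle motor, differed by -0.70 and the checkpoint kinase Bub1 by -0.73, both without overlap.

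Other members had smaller differences or pairs that were less alike. Mcm6, a subunit of the replicative helicase, was at 8.92, 8.56 and 9.23 at 1 µM and at 7.50, 8.33 and 9.14 at 5 µM. Its pairs differed by -1.42, -0.24 and -0.09, so number 1 carried most of the mean of -0.58 (limma adjusted p = 0.405, n = 3 each). Mcm2 differed by -0.14 and Tyms, thymidylate synthase, by -0.22. Cenpe, a kinesin of the kinetochore, was the 1 member that was higher, by 0.06.

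**Figure D2:**
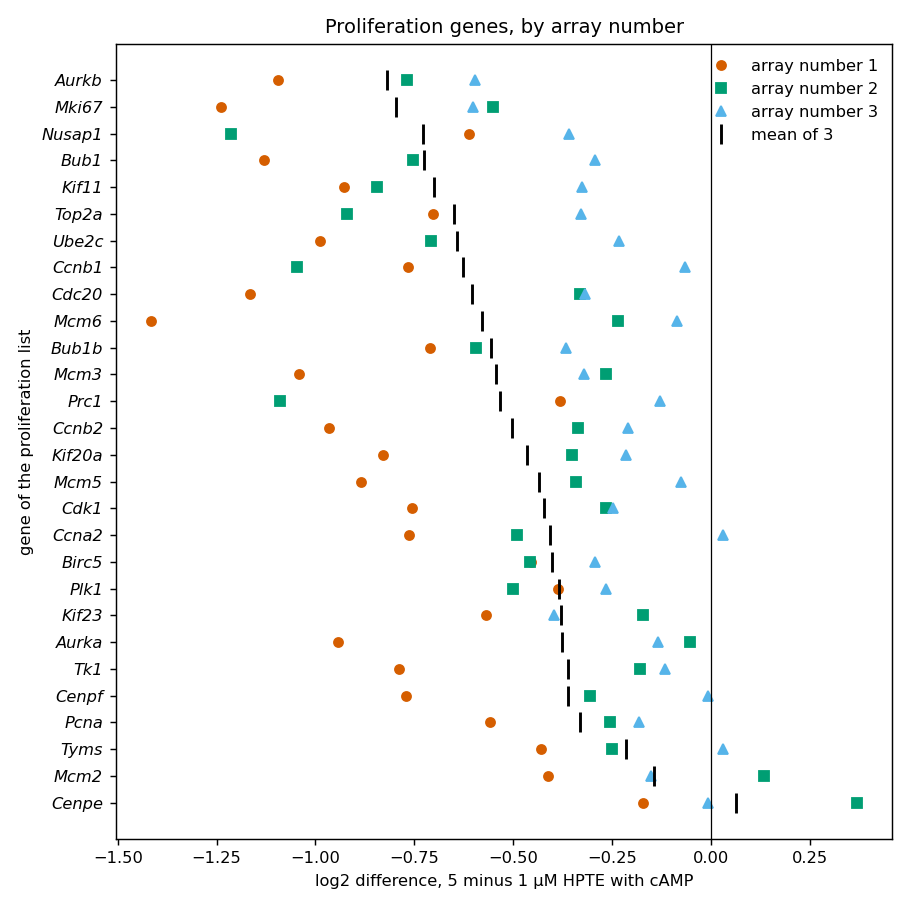
Log2 difference of 5 minus 1 µM HPTE with cAMP on the horizontal axis for each of the 28 measured proliferation genes, by array number (points), with the mean of the 3 pairs as a black tick. Nearly all points lie left of 0, and number 1 is often the farthest; none of the 28 genes passed the test.

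Over the cAMP doses, the mean log2 intensity of the 28 genes was 8.51, 8.32 and 8.07 in numbers 1, 2 and 3 at 0 µM, 8.91, 8.86 and 8.82 at 1 µM, 8.13, 8.40 and 8.59 at 5 µM and 7.47, 7.23 and 7.29 at 10 µM. The 3 arrays at 1 µM were the highest of the 12, and those at 10 µM the lowest. The arrays at 0 and 5 µM overlapped. From 5 to 10 µM, 23 of the 28 genes fell past the test, where 1.32% of all probe sets did, with a list median of -1.05. For the step from 1 to 5 µM the list's median was -0.19 with FSH and -0.44 without a stimulus, where 0 members passed in limma (5 and 15 were lower at an unadjusted p under 0.05, as were 7.15% and 1.58% of all probe sets). The test of the difference between stimuli called 0 of the 28 genes in limma against FSH and 0 against basal cells (3 and 0 had a more negative effect with cAMP at an unadjusted p under 0.05, as did 4.7% and 2.26% of all probe sets).

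**Figure D3:**
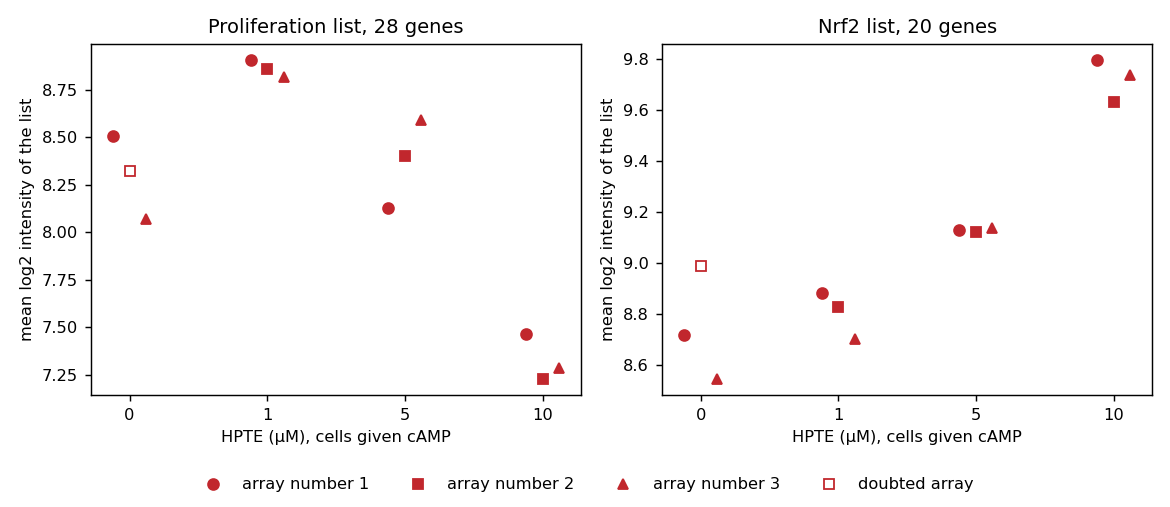
Mean log2 intensity of the 28 proliferation genes (left) and the 20 Nrf2 genes (right) in each cAMP array by HPTE dose, with shape for the array number and an open square for the doubted array. The proliferation mean is highest at 1 µM, and the Nrf2 mean lies at 9.12 to 9.14 in all arrays at 5 µM, above those at 1 µM.

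The Nrf2 list had 20 of 22 genes measured. Nqo1 passed, and 17 were higher at 5 µM, where 57.4% of all probe sets were lower. In all 3 pairs 10 were higher (15% of all probe sets were). At an unadjusted p under 0.05, 6 were higher, where 4.2% of all probe sets were. The median was 0.28, with 0.17, 0.27 and 0.33 in the 3 pairs. Without number 1, 2 or 3 in every group it was 0.37, 0.25 and 0.20, and Nqo1 was then no longer called. The mean of the 20 genes was 8.88, 8.83 and 8.70 at 1 µM and 9.13, 9.12 and 9.14 at 5 µM, without overlap, and 9.80, 9.63 and 9.74 at 10 µM. From 5 to 10 µM, 7 of the 20 genes rose past the test, with a median of 0.45, where 1.46% of all probe sets rose. For the step from 1 to 5 µM with FSH the list's median was -0.07. There 1 member rose and 2 fell past the test, as did 3.16% and 1.99% of all probe sets. In basal cells the median was 0.12 and 0 passed in limma (4 were higher at an unadjusted p under 0.05). The test of the difference between stimuli called 0 of the 20 in limma.

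Akr1b8, an aldo-keto reductase, was at 9.05, 8.59 and 8.49 at 1 µM and at 9.92, 9.94 and 9.86 at 5 µM (1.20 ± 0.33, limma adjusted p = 0.279, n = 3 each). Srxn1, sulfiredoxin, was at 8.47, 8.88 and 8.33 and then at 9.54, 9.15 and 9.50 (0.83 ± 0.29, limma adjusted p = 0.328, n = 3 each). Neither overlapped between doses. Gstp1, a glutathione S-transferase, was at 10.16, 9.91 and 11.36 and then at 10.49, 10.69 and 11.85, overlapping because number 3 was high at both doses (0.54 ± 0.16, limma adjusted p = 0.284, n = 3 each). Hmox1, heme oxygenase, differed by 0.57 without overlap, Mt2A, a metallothionein, by 0.40, and Gclm, a subunit of the glutathione synthesis enzyme, by -0.11.

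The Gstp1 promoter is shown because it holds a match to a motif that Nrf2 is known to bind. The 250 bases before its start lie on the minus strand at chr1:210769706-210769955 (RefSeq, GRCr8), and capitals mark TGACNNNGC, the core of the antioxidant response element.
Gstp1: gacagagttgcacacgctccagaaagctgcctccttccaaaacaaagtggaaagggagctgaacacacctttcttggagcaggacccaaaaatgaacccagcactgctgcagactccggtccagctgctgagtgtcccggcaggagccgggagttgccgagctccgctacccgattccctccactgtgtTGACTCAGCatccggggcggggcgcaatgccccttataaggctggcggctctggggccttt
The match begins 61 bases before the start. It describes the letters and does not show a site in use, by Nrf2 or by another factor. Of 18 Nrf2 genes with a promoter in the table, 5 held TGACNNNGC on either strand (27.8%), and 10.1% of all promoters did. Gstp1 had the smallest p of those that held it. Nqo1 and Akr1b8, which had smaller p values than Gstp1, and Srxn1 held no match there or had no promoter in the table.

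Genes of steroid synthesis showed no such shift. Of 19 listed genes 15 were measured, 0 passed in limma and the median was -0.02. At an unadjusted p under 0.05, 1 was higher, where 4.2% of all probe sets were. Star, which carries cholesterol into mitochondria, was at 10.95, 10.33 and 9.18 at 1 µM and at 11.42, 11.11 and 10.13 at 5 µM. It was higher in all 3 pairs, but the doses overlapped (0.73 ± 0.30, limma adjusted p = 0.371, n = 3 each). Cyp19a1, the aromatase, was at 8.02, 7.84 and 7.61 and then at 7.46, 7.86 and 8.10, with pairs in both directions (-0.02 ± 0.91, limma adjusted p = 0.996, n = 3 each). The SE of Cyp19a1 comes from a spread shared by all groups, the doubted arrays included. Under the same step with FSH the list's median was -1.25 and 7 genes fell, where 1.99% of all probe sets did. Nr5a1, the steroidogenic factor SF-1, fell by 1.61 with FSH and differed by -0.23 with cAMP (difference between stimuli 1.38, limma adjusted p = 0.0449).

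The stress list of the endoplasmic reticulum and amino acid response had 27 of 27 genes measured, 0 passing in limma and a median of 0.16. At an unadjusted p under 0.05, 2 were higher and 0 lower, where 4.2% and 7.52% of all probe sets were. Of the 27 genes 23 were higher, where 57.4% of all probe sets were lower. All 3 pairs were higher for 7 genes, and for 15% of all probe sets. Chac1, a glutathione-degrading enzyme, was at 6.15, 6.65 and 5.77 and then at 7.19, 6.44 and 6.77, higher in numbers 1 and 3 and lower in number 2 (0.61 ± 0.23, limma adjusted p = 0.346, n = 3 each). Trib3, a pseudokinase of the same response, was at 7.45, 7.11 and 6.74 and then at 7.64, 7.91 and 7.64, without overlap. From 5 to 10 µM, 14 of the 27 rose past the test, where 1.46% of all probe sets rose, with a median of 0.70. Trib3 rose by 2.31 and the transcription factor Ddit3 by 1.70 in that step (limma adjusted p = 6.06e-05 and 2.85e-04).

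Of 18 measured lipid genes 0 passed in limma. At an unadjusted p under 0.05, 2 were higher and 2 lower, where 4.2% and 7.52% of all probe sets were. Angptl4, a lipase inhibitor induced by PPARs, was at 8.73, 8.32 and 7.56 and then at 9.09, 9.59 and 8.65 (0.91 ± 0.21, limma adjusted p = 0.179, n = 3 each). Abca1, the cholesterol exporter, was at 11.13, 11.28 and 11.23 and then at 11.89, 11.70 and 11.73 (0.56 ± 0.15, limma adjusted p = 0.243, n = 3 each). Pparg, a nuclear receptor of lipid storage, was at 8.80, 9.01 and 9.09 and then at 7.73, 8.20 and 8.48 (-0.83 ± 0.26, limma adjusted p = 0.3, n = 3 each). Abca1 was higher and Pparg lower in every array at 5 µM, and the doses of Angptl4 overlapped.

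In the other lists 0 members passed in limma, apart from Nqo1, which also stands in the list of aryl hydrocarbon receptor and xenobiotic genes. The medians were 0.04 for 26 cAMP and protein kinase A genes, 0.21 for 17 ovulatory genes, -0.06 for 21 genes of granulosa differentiation, -0.03 for 19 estrogen-responsive genes and 0.08 for 11 androgen-responsive genes. At an unadjusted p under 0.05 the numbers higher and lower were 2 and 1 for the kinase list, 1 and 0 for the ovulatory, 1 and 1 for the differentiation, 0 and 0 for the estrogen and 2 and 0 for the androgen list, and 2 and 1 for the xenobiotic list with Nqo1. Over all probe sets 4.2% were higher and 7.52% lower at that p. The 9 remaining lists had medians of -0.11 to 0.11. Among them the numbers were 2 and 2 for retinoid metabolism, 1 and 2 for extracellular matrix, 1 and 0 each for the IGF system, hypoxia and interferon, 0 and 1 each for the actin cytoskeleton and the TGF-beta family, and 0 and 0 each for cholesterol synthesis and p53. Col1a1, collagen I, was at 8.70, 9.09 and 8.40 and then at 8.44, 7.42 and 7.60 (-0.91 ± 0.33, limma adjusted p = 0.335, n = 3 each). Ccn2, a growth factor of the matrix, was at 12.34, 12.19 and 12.06 and then at 11.92, 11.46 and 11.75, below every array at 1 µM (-0.48 ± 0.16, limma adjusted p = 0.319, n = 3 each).

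**Figure D4:**
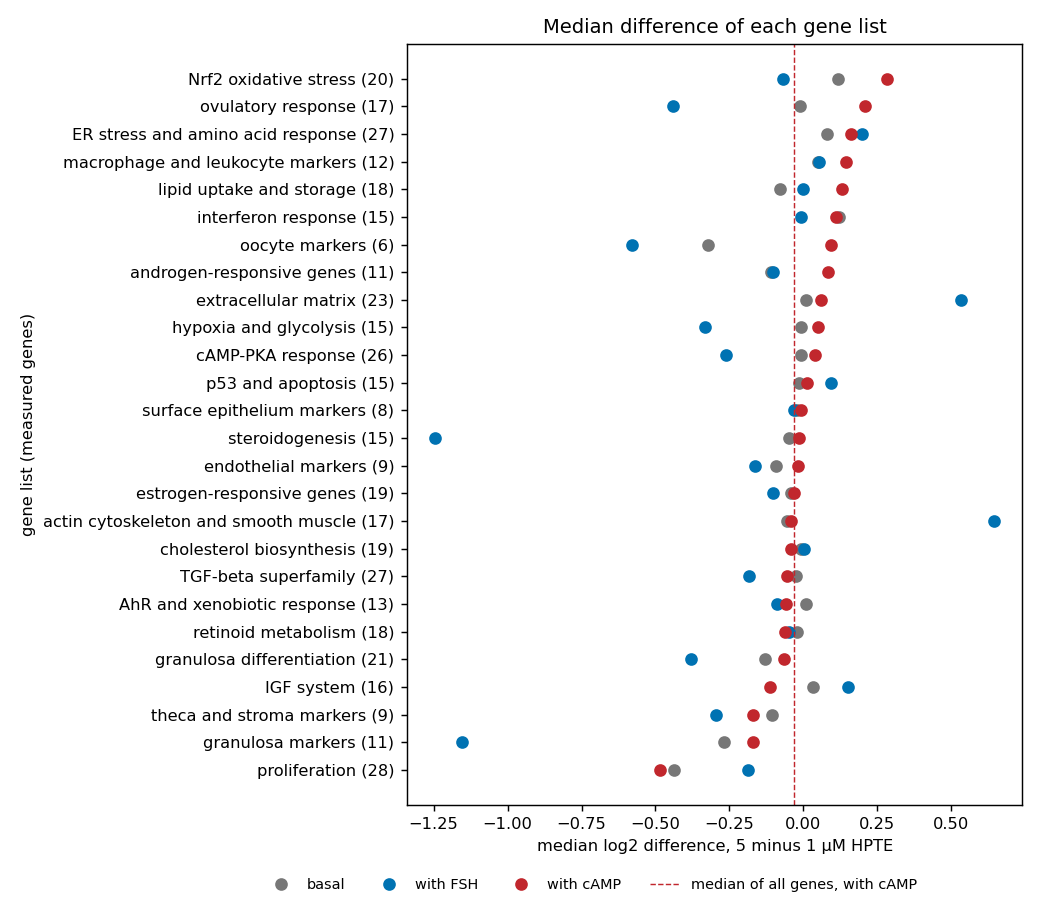
Median log2 difference of 5 minus 1 µM HPTE on the horizontal axis for each of 26 gene lists, with the number of measured genes in brackets, in cells with cAMP, FSH or neither. The dashed line is the median of all genes with cAMP (-0.03). With cAMP the proliferation list lies lowest (-0.48) and the Nrf2 list highest (0.28), and the steroidogenesis median is -0.02 with cAMP and -1.25 with FSH.

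The same step of dose was then set beside that in cells with FSH and in basal cells, which share no arrays with the cAMP comparison. With FSH 1599 probe sets passed (5.15%), 981 higher (3.16%) and 618 lower (1.99%), and in basal cells 0 passed in limma (877, or 2.83%, at an unadjusted p under 0.05). A test of the difference between stimuli called 124 probe sets for cAMP against FSH (0.399%), 47 with a more positive effect with cAMP (0.151%) and 77 with a more negative one (0.248%), and 1 for cAMP against basal cells (0.00322%). The count of 124 moved with single arrays. It was 80, 34 and 36 without number 1, 2 or 3 at 5 µM with cAMP and 22, 40 and 69 without those at 1 µM. Without number 2 or 3 at 5 µM with FSH it was 22 each, and without number 1 or 3 at 1 µM with FSH 18 and 15. Number 2 at 1 µM with FSH stood apart from the others of its group, with Cyp19a1 at 9.03 against 11.37 and 11.23, and without it the count was 875. Without number 1, 2 or 3 in every group it was 4, 603 and 0, and without the doubted arrays 406.

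Cldn11 was called in both tests. With FSH it was at 9.96, 8.80 and 8.51 at 1 µM and at 8.35, 8.33 and 7.35 at 5 µM, a fall of 1.08 ± 0.25 (limma adjusted p = 0.00753, n = 3 each). The difference in basal cells was -0.64 and did not pass (limma adjusted p = 0.99991). With cAMP the effect on Cldn11 was thus opposite in sign to the fall with FSH and to this basal difference. The effect was larger with cAMP by 2.76 ± 0.35 than with FSH (limma adjusted p = 1.62e-04) and by 2.32 ± 0.35 than in basal cells (0.012). The second of these was lost without number 1 at 5 µM with cAMP (0.107), numbers 2 or 3 at 1 µM with cAMP (0.0613 and 0.0957) or numbers 1 or 2 at 5 µM in basal cells (0.0747 and 0.0812). For the dimmer probe set of Cldn11 the cAMP minus FSH difference was -0.195 (limma adjusted p = 0.854). Ampd3 rose by 0.87 with FSH (limma adjusted p = 0.0469) and differed by -0.14 in basal cells, and the differences between stimuli were not past the threshold (1.07 and 2.08, limma adjusted p = 0.255 and 0.0758). For the other 5 genes neither difference between stimuli passed. Of these 5, Ctxn1 also rose with FSH (0.62, limma adjusted p = 0.0257), and the others did not pass with FSH. Itgb3 and Plekhd1, not past the threshold with cAMP, passed with FSH (1.77 and -1.26, limma adjusted p = 7.67e-07 and 0.00214).

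The other genes with the largest differences between cAMP and FSH moved with FSH. Smoc2, a matrix protein, was at 10.30, 10.33 and 10.31 at 1 µM and at 9.59, 10.92 and 9.80 at 5 µM with cAMP. With FSH it went from 10.15, 9.02 and 9.84 to 6.55, 7.46 and 6.33. The FSH doses did not overlap, and the effects differed by 2.68 ± 0.45 (limma adjusted p = 0.00627, n = 3 each). For 2 other probe sets of Smoc2, with mean log2 intensities of 5.73 and 5.70, the difference between stimuli was -0.16 and 0.16 (limma adjusted p = 0.939 and 0.952). Esm1, the secreted proteoglycan endocan, was at 4.26, 4.41 and 4.48 and then at 4.32, 4.13 and 4.17 with cAMP, but went from 4.66, 5.21 and 4.80 to 6.38, 7.48 and 7.15 with FSH. Its effects differed by -2.29 ± 0.26 (limma adjusted p = 3.84e-05, n = 3 each), and its levels with cAMP overlapped between doses. Those levels were low and come without detection calls, so they do not show a lack of response with cAMP. Among genes of the lists, the effect on Nrip1, a corepressor of nuclear receptors, differed between stimuli by 0.66, and those on the lipoprotein receptor Vldlr, tenascin Tnc, osteopontin Spp1 and Ccn2 by -1.35, -1.39, -1.39 and -1.02 (limma adjusted p of 0.00868 to 0.0494). Diaph3 differed by -1.07 (limma adjusted p = 0.0235), with -0.73 with cAMP and 0.33 with FSH, neither past the threshold.

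**Figure D5:**
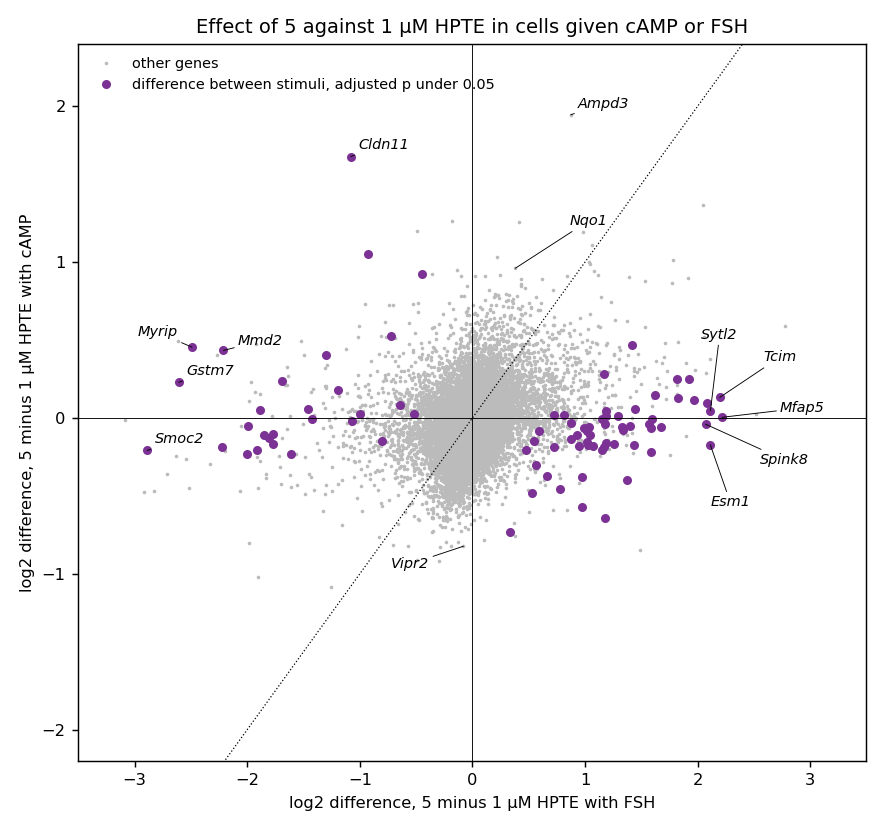
Log2 difference of 5 minus 1 µM HPTE with FSH (horizontal) and with cAMP (vertical) for each gene, with genes whose effects differed between the stimuli at an adjusted p under 0.05 in purple and the line of equal effects dotted. Most purple points lie near 0 with cAMP and far from 0 with FSH, and Cldn11 lies at 1.68 with cAMP and -1.08 with FSH.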

How the data were processed

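The authors deposited linear intensity, already normalized and summarised per probe set of an Affymetrix rat genome array; the submitters' processing notes name RMA. Software versions and the batches of normalization were not given in the sources used here. Array number limits the precision. Log2 was taken, 57 control probe sets were set aside and 31042 were tested without a filter. The fit (R 4.3.3, limma 3.58.1) had 12 group means and the title number as a block, with 22 residual degrees of freedom, over all 36 arrays. Deviations of arrays with the same number from their group mean correlated at 0.33, 0.35 and 0.83 with cAMP, and the numbers were taken to pair them. Such deviations cancel out within a group, so an effect of number 3 alone also raises the values for numbers 1 and 2. Over all probe sets, number 1 at 1 µM correlated at 0.991 with number 2 at 5 µM and at 0.981 with number 1. The pairing of numbers 1 and 2 is thus an assumption. P-values were two-sided and adjusted by Benjamini-Hochberg over all probe sets. The script was tested on simulated data. Names came from the platform table and the GRCr8 gene list, with 1 probe set per gene, the one with the highest mean. Genes named were those past the threshold with 3 pairs of 1 sign (at most 15 a direction), filled to 8 by p, the 5 largest differences between stimuli a direction, and members of 26 lists (435 of 487 measured). The comparison and the lists were chosen with earlier results of these data known. Alternatives changed the block, arrays, filter, scaling, offset and weights.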

Additional observations from a re-analysis of the deposited data

Results flagged for a closer look

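The effect of 5 against 1 µM HPTE differed between cAMP and FSH cells for 124 probe sets and between cAMP and basal cells for 1, by the test of that difference in limma. Cldn11 stood out in both, with differences of 2.76 and 2.32 on the log2 scale (cAMP minus FSH and cAMP minus basal), and it rose in 3 of 3 pairs with cAMP. For the other genes with the largest differences, the effect with cAMP was small and that with FSH large. The cAMP minus FSH difference was 2.94 for Myrip, which links secretory vesicles to myosin, 2.84 for the glutathione transferase Gstm7, 2.68 for Smoc2 and 2.64 for Mmd2. It was -2.29 for Esm1, -2.21 for the microfibril protein Mfap5, -2.11 for the protease inhibitor Spink8, -2.07 for the Rab27 effector Sytl2 and -2.06 for Tcim. Over all cAMP arrays Esm1 was at 3.97 to 4.74 and Spink8 at 4.36 to 4.89. At such low levels and without detection calls, a small effect does not show that these genes fail to respond with cAMP. The calls of Myrip, Mmd2, Mfap5, Sytl2 and Tcim held in 10, 8, 10, 10 and 11 of 22 alternatives. Those of Gstm7, Smoc2, Spink8 and Cldn11 held in 19, 19, 19 and 20 of 22, and that of Esm1 in 20 of 21. The call of Cldn11 against basal cells held in 13 of 22 and was lost in 9. For 2 other probe sets of Myrip the difference from FSH was 1.04 and 0.19 (limma adjusted p = 0.216 and 0.861). For the other probe set of Cldn11, with a mean log2 intensity of 4.95, it was -0.195 (limma adjusted p = 0.854).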

How the results depend on the processing

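The 7 called genes kept their direction under all 18 alternatives run. Ampd3 stayed past the threshold in 15 of them, Cldn11 in 11, Nqo1 and Vipr2 in 7, Tmem176a in 6, and Ctxn1 and Zcchc24 in 5. The 10 called probe sets (7 higher, 3 lower) became 0 (0 and 0) without the replicate block, 1 (1 and 0) over the 12 cAMP arrays alone, 2 (2 and 0) over the 6 arrays compared alone, 17 (14 higher) without the doubted arrays and 2806 (870 and 1936) with array weights, whose estimation stopped before it converged and whose weights ran from 0.00564 to 5.02. Among probe sets above the median level, 1 was lower. The cause of these changes was not tested. Leaving out 1 array, or 1 number from every group, gave 0 to 4 in all, 0 to 4 higher and 0 to 1 lower.

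The 124 differences between cAMP and FSH became 10 without the replicate block, 406 without the doubted arrays, 200 among probe sets above the median level and 1429 with array weights, and 0 to 875 when arrays or numbers were left out. The 1 difference from basal cells became 0 without the replicate block, 2 after quantile normalization, 10 with array weights and 0 to 2 when arrays or numbers were left out. Leaving out the FSH and basal arrays, and the lists without the doubted arrays, were chosen after seeing the data. Of 182 list medians under alternatives, 15 moved by more than their spread. 3 arrays a group limit what can be called: a missed threshold does not show that a gene is alike at both doses.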
